A study of Homo sapiens with 12 samples.

Results

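The genes described here are the G1 cyclins, the kinases that bind the D-type cyclins, and the CDC25 phosphatases. The 10 genes were taken by symbol and matched to Ensembl identifiers among the 58174 genes of the mRNA-seq tables. They are CCND1, CCND2, CCND3, CCNE1, CCNE2, CDK4, CDK6, CDC25A, CDC25B and CDC25C, and all 10 were found. The rule used no measured value, but the genes were picked with earlier results of these data known. The study itself named some of these genes from the same samples, so their direction in these data is not independent evidence.

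D-type cyclins are induced by mitogens, bind CDK4 or CDK6, and start the phosphorylation of the retinoblastoma protein RB1 in G1. E-type cyclins bind CDK2 and complete that phosphorylation, which releases E2F transcription factors and allows entry into S phase. CDC25 phosphatases remove inhibitory phosphates, placed by WEE1 and PKMYT1, from the CDKs. CDC25A acts from G1/S onward, whereas CDC25B and CDC25C are best known for activating CDK1 with cyclin B at entry into mitosis. CHEK1 and CHEK2 restrain the CDC25 proteins after DNA damage, and the alkylating drug temozolomide (TMZ) is a source of such damage. The CDK4 and CDK6 complexes are often altered in glioblastoma, through CDK4 gain or loss of the CDKN2A locus.

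The mRNA-seq covered U-87 MG and U-118 MG, established human glioblastoma cell lines, with 3 sensitive and 3 resistant libraries in each line and 12 in all. Per the study's methods, all cells derive from CD133-CD15- sorted cells, kept in DMEM/F12 with serum and BMP2 to hold them in a differentiated state. The sensitive libraries are taken to be the control cells, and the resistant libraries the aggregation cells that formed after continuous exposure to TMZ at 50 μM. The paper's text places the regrowth into aggregations up to weeks after the treatment, whereas a figure legend places it after weeks of treatment. The time between the drug and the harvest is therefore not settled by the sources used here. Only few aggregations formed, and the sources do not say whether the libraries of a group come from separate aggregations or cultures, so p-values measure the spread between these libraries, which may be technical. Values are TPM (transcripts per 1000000 transcripts), a level per length that sums to one fixed total in each library. No read counts can be had from TPM, so the depth behind each value is unknown.

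The labels were compared with the libraries. Among 44 genes at 10 TPM or more in every U87 sensitive library and under 0.1 TPM in every U118 sensitive library, the U118 libraries labelled resistant held 28, 25 and 27 at 10 TPM or more. Of 110 genes with the opposite pattern, they held 7, 5 and 5 at that level. Their Spearman rho across genes was 0.861 to 0.873 with the U87 libraries and 0.829 to 0.850 with the U118 sensitive libraries. All 3 of these libraries share that likeness, so no result in U118 could be given without it. For U118, a change within the line and a difference in the origin of the cells cannot be told apart. In bulk RNA, fewer cells of a type and less RNA per cell cannot be told apart either.

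Other properties moved with the groups. The share of TPM from the mitochondrial genome was 12.9% to 16.9% in U87 sensitive libraries and 22.2% to 23.7% in U87 resistant ones. In U118 the sensitive libraries had 7.42%, 8.55% and 19.7%, and the libraries labelled resistant had 13.2%, 29.9% and 26.1%, so that sensitive replicate 3 and resistant replicate 1 stood apart from their groups. A list of 9 glioma and glial markers summed to 5036 to 5069 TPM in U87 sensitive, 5450 to 6414 in U87 resistant, 6741 to 6964 in U118 sensitive and 4803 to 7750 TPM in the U118 libraries labelled resistant, most of it VIM (4425 to 7149 TPM over the 12 libraries) and CD44 (311 to 868 TPM). A list of 9 fibroblast genes summed to 240 to 243, 455 to 540, 1323 to 1710 and 301 to 674 TPM in the same order. The glial markers GFAP, S100B and SOX2 stayed under 1 TPM in every library, and AQP4 was listed at 0. Other markers of that list were present. NES had log2 fold changes of 0.511 in U87 and 0.979 in U118 (adjusted p = 0.017 and 0.0324 in limma). SLC1A3 had -0.334 in U87 and 0.942 in U118 (adjusted p = 0.182 and 0.0415), with an interaction of 1.28 (adjusted p = 0.0281). OLIG2 averaged 2.999 TPM in U87 sensitive and 3.29 TPM in U87 resistant libraries. In U118 it averaged 0.0175 TPM in the sensitive libraries and 0.853 TPM in those labelled resistant. CD44 was lower in U118, with log2 fold changes of 0.341 in U87 and -0.935 in U118 (adjusted p = 0.0308 and 0.0123 in limma). Its interaction was -1.28 (adjusted p = 0.00179). VIM had 0.214 in U87 and -0.177 in U118 (adjusted p = 0.0522 and 0.622). The 6 immune genes summed to 171 to 380 TPM, nearly all from CD68 (170 to 379 TPM), whose change differed between the lines (interaction 1.08, adjusted p = 0.0103 in limma), whereas PTPRC, AIF1 and CD3E were under 0.1 TPM in every library. The 4 endothelial genes together never passed 3.71 TPM. Calls that a refit without the mitochondrially encoded genes ended are given with it below, and the part of the fibroblast genes in the results was not tested.

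Resistant and sensitive libraries were compared within each line with limma on log2(TPM + 1), over genes at 1 TPM or more in at least 3 of the 6 libraries. A gene was called, and is said to have risen or fallen, where the Benjamini-Hochberg adjusted p was under 0.05 and the log2 fold change was 1 or more in either direction. The log2 scale with a pseudocount understates the change of low genes. Over all genes tested, the median log2 fold change was -0.24 in U87 and -0.52 in U118, and after median-ratio scaling of the libraries it was -0.01 and -0.02. The share of called genes that were higher was 28.0% in U87 and 24.5% in U118, and with this scaling it became 55.0% and 54.1%. A result of one of the 10 genes that this scaling moved across the threshold or in direction is given with it.

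In U87, 3 of the 9 genes tested fell, CDC25A, CDC25B and CDC25C, and none rose, beside 7.79% of all genes tested that fell and 3.03% that rose. With the adjusted p alone, 5 were lower, beside 29.7% of all genes, and 1 was higher, beside 9.43%. In U118, CCND1, CCNE2, CDC25B and CDC25C were lower in the libraries labelled resistant, 4 of 9 beside 26.6% of all genes, and CCNE1 was higher, 1 of 9 beside 8.64%. With the adjusted p alone, 5 were lower, beside 39.1% of all genes, and 1 was higher, beside 12.2%. After median-ratio scaling 1 fell and none rose in U87, beside 3.92% and 4.79% of all genes, and 1 was lower and 2 were higher in U118, beside 12.9% and 15.2%, so that the balance in U118 turned. The median of the 9 was -0.24 in U87, where that of all genes was -0.24, and -0.89 in U118, where that of all genes was -0.52. Library values did not overlap between the groups for 6 of the 9 in U87 and 7 of the 9 in U118, beside 53.4% and 58.6% of all genes. CCND2 passed the filter in neither line. CDC25B and CDC25C were the 2 genes called lower in both lines, beside 2.28% of the 13217 genes tested in both, and after median-ratio scaling none of the 9 was called in both, beside 0.476% of all genes called lower in both.

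**Figure D1:**
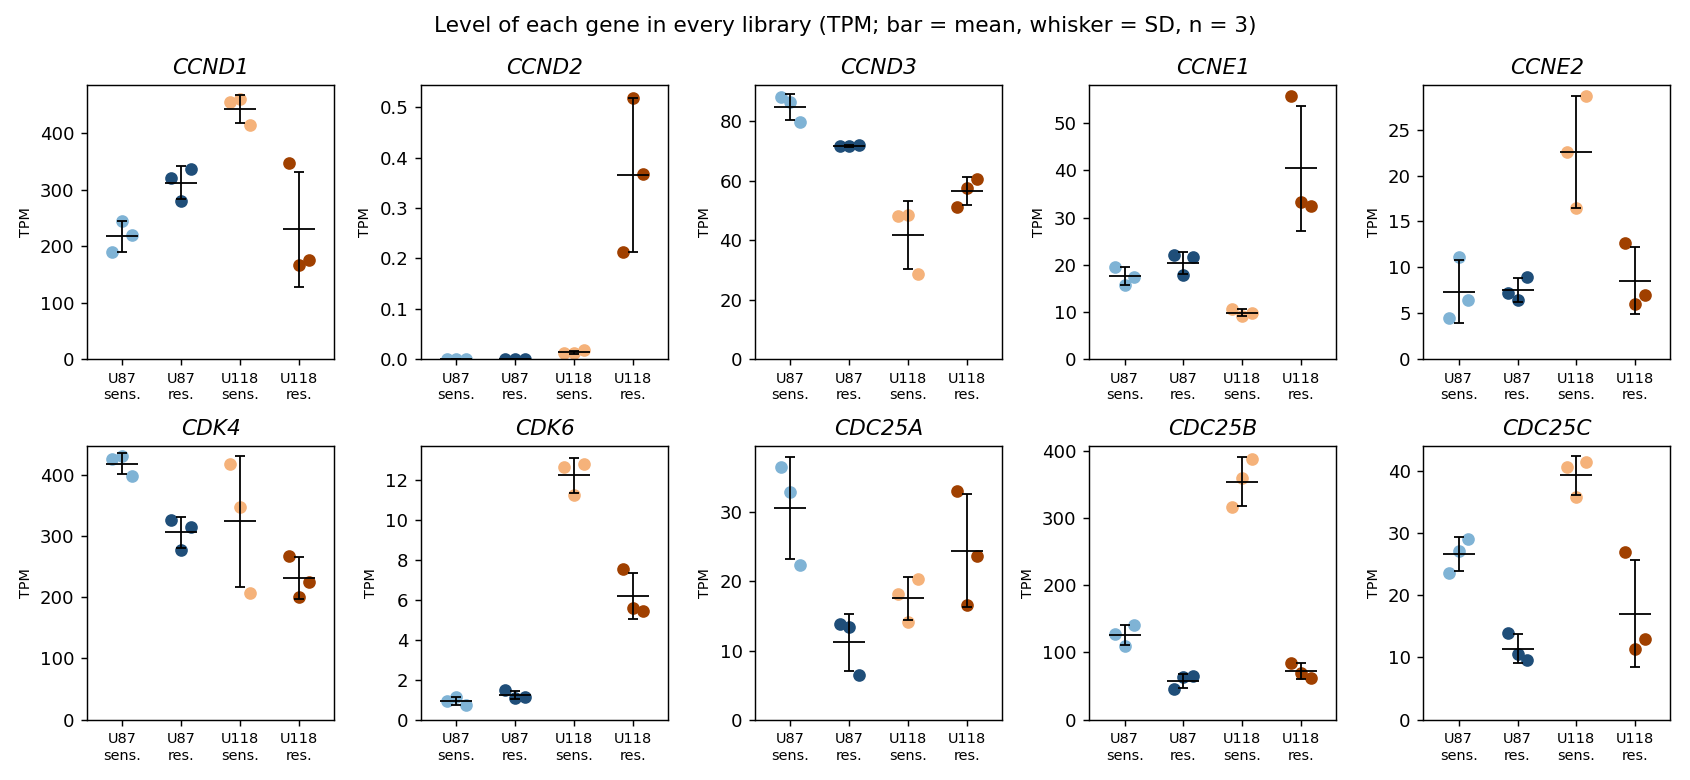
TPM of the 10 genes in every library (points) with the group mean (bar) and SD (whisker, n = 3), one panel per gene with its own axis from 0, for U87 and U118 sensitive (sens.) and resistant (res.) libraries. CDC25B and CDC25C are lower in the resistant libraries of both lines, CCNE1 and CCNE2 separate in U118 and overlap in U87, and CCND2 stays under 1 TPM throughout.

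CCND1, the main D-type cyclin, lies at chr11:69641087-69654474 on the plus strand (GRCh38, GENCODE release 29). The U87 values of CCND1 were 189, 245 and 219 TPM in the sensitive libraries and 321, 280 and 336 TPM in the resistant ones. All resistant values lay above all sensitive values. The log2 fold change was 0.52 ± 0.11 (SE), with an adjusted p of 0.0112 in limma, so it passed the adjusted p but not the fold threshold, and it was 0.79 after median-ratio scaling. In U118, CCND1 had 456, 461 and 414 TPM in the sensitive libraries and 348, 167 and 175 TPM in those labelled resistant. The groups did not overlap, with resistant replicate 1 between the other two libraries of its group and the sensitive ones. CCND1 fell by 1.03 on the log2 scale (SE 0.29, adjusted p = 0.0177 in limma). That call did not hold after median-ratio scaling (-0.47, adjusted p = 0.0790), without the mitochondrially encoded genes (-0.83, adjusted p = 0.0150) or with no filter on low values (-1.03, adjusted p = 0.0640), nor without sensitive replicate 2 (-0.999, adjusted p = 0.0604), resistant replicate 2 (-0.84, adjusted p = 0.0606) or resistant replicate 3 (-0.87, adjusted p = 0.0739). Without the pair of libraries that stood apart in mitochondrial share, it was -1.41 with an adjusted p of 9.8e-05. The change in U118 was lower than that in U87 by 1.55 ± 0.33 on the log2 scale, with an interaction adjusted p of 0.00285.

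CCND3, a D-type cyclin best known from blood cells, lies at chr6:41934933-42050357 on the minus strand. In U87 it had 88.1, 86.6 and 79.7 TPM in the sensitive libraries and 71.6, 71.6 and 72.1 TPM in the resistant ones. The resistant values were nearly equal and all lower. The log2 fold change of -0.24 ± 0.07 passed the adjusted p (0.0403 in limma) but not the fold threshold, and it was 0.02 after median-ratio scaling. Without any single library the adjusted p did not pass (0.0502 to 0.103). Without the mitochondrially encoded genes the log2 fold change was -0.10 with an adjusted p of 0.367. In U118, CCND3 had 48.3, 48.4 and 28.7 TPM in the sensitive libraries and 51.3, 57.6 and 60.7 TPM in those labelled resistant. The groups did not overlap, and sensitive replicate 3 was far below the other sensitive libraries. The log2 fold change was 0.46 ± 0.25 with an adjusted p of 0.150 and a 95% interval from -0.11 to 1.03. Without sensitive replicate 3 it was 0.22 with an adjusted p of 0.379, and without the mitochondrially encoded genes 0.66 with an adjusted p of 0.0371, under the fold threshold. After median-ratio scaling it was 1.01 with an adjusted p of 0.0215 in limma. The interaction of 0.70 had an adjusted p of 0.0520. It was 0.94 with an adjusted p of 0.0364 in limma after median-ratio scaling. Without the mitochondrially encoded genes it was 0.76 with an adjusted p of 0.0251. Both passed the adjusted p but not the fold threshold.

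CCND2, the remaining D-type cyclin, lies at chr12:4273772-4305350 on the plus strand. It was listed at 0 in all 6 U87 libraries. In U118 it had 0.012, 0.012 and 0.017 TPM in the sensitive libraries and 0.21, 0.52 and 0.37 TPM in those labelled resistant. The latter were all higher, but no library reached 1 TPM, and no test was made.

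CCND1 made up 71.8% ± 3.1 (SD, n = 3) of the summed TPM of the D-type cyclins in U87 sensitive libraries and 81.3% ± 1.4 in U87 resistant ones. It made up 91.5% ± 1.8 in U118 sensitive libraries and 78.5% ± 7.5 in those labelled resistant. A ratio within a library does not move with the scaling of that library. The ratio of CCND1 to CCND3 in U87 was 2.15, 2.82 and 2.75 in the sensitive libraries and 4.49, 3.92 and 4.66 in the resistant ones. In U118 it was 9.43, 9.51 and 14.4 in the sensitive libraries and 6.78, 2.90 and 2.89 in those labelled resistant. The ratio was thus higher in every resistant library of U87 and lower in every one of U118, with a log2 difference of 0.77 ± 0.15 in U87 and -1.50 ± 0.46 in U118. In each line the exact two-sided permutation p was 0.1, the smallest that 3 against 3 libraries allow, and 0.14 after Benjamini-Hochberg adjustment over the 14 exact tests of ratios, as for every ratio below with an exact p of 0.1.

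CCNE1, which activates CDK2 at the G1/S transition, lies at chr19:29811898-29824308 on the plus strand. In U87 it had 19.5, 15.7 and 17.4 TPM in the sensitive libraries and 22, 17.8 and 21.5 TPM in the resistant ones. The groups overlapped, and the log2 fold change was 0.21 ± 0.14 with an adjusted p of 0.258 in limma and a 95% interval from -0.11 to 0.53. The U118 values of CCNE1 were 10.7, 9.05 and 9.80 TPM in the sensitive libraries and 55.8, 33.2 and 32.4 TPM in those labelled resistant. Every library labelled resistant lay far above the sensitive ones, and their mean was 4.11 times as high. CCNE1 rose by 1.89 ± 0.26 on the log2 scale (adjusted p = 0.000423), and the range over all alternatives was 1.64 to 2.42. The interaction of 1.68 ± 0.29 had an adjusted p of 0.000653.

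CCNE2, the other E-type cyclin, lies on chromosome 8, from 94879770 to 94896678 on the minus strand. The U87 values of CCNE2 were 4.48, 11.1 and 6.48 TPM in the sensitive libraries and 7.18, 6.46 and 9.0 TPM in the resistant ones. The sensitive libraries spanned the whole range of the resistant ones, and the log2 fold change was 0.10 ± 0.30 with a 95% interval from -0.61 to 0.80. In U118 it had 22.5, 16.5 and 28.7 TPM in the sensitive libraries and 12.7, 5.97 and 6.96 TPM in those labelled resistant. The groups did not overlap. CCNE2 fell by 1.34 on the log2 scale (SE 0.32, adjusted p = 0.00799 in limma). With median-ratio scaling it was -0.82 with an adjusted p of 0.0185, under the fold threshold, and the call was lost. The interaction of -1.43 ± 0.46 had an adjusted p of 0.0279. It lost the threshold with no filter on low values (adjusted p = 0.0651) and without any one of 7 libraries, U87 sensitive replicates 1 and 3, U87 resistant replicate 3, U118 sensitive replicates 1 and 3 and U118 resistant replicates 2 and 3, with adjusted p from 0.0554 to 0.0717.

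The order of the E-type cyclins was reversed in the U118 libraries labelled resistant. The ratio of CCNE2 to CCNE1 was 2.11, 1.82 and 2.92 in the U118 sensitive libraries and 0.227, 0.180 and 0.215 in those labelled resistant, a log2 difference of -3.44 ± 0.23. CCNE1 took 31.0% ± 5.1 (SD, n = 3) of the summed E-type cyclin TPM in the first and 82.9% ± 1.7 in the second. The exact two-sided permutation p was 0.1, the smallest possible. In U87 the ratio was 0.230, 0.709 and 0.373 in the sensitive libraries and 0.326, 0.363 and 0.417 in the resistant ones, and the groups overlapped (exact permutation p = 0.8, adjusted 0.8). In all 6 U87 libraries CCNE1 was the higher of the pair, as it was in the U118 libraries labelled resistant.

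**Figure D2:**
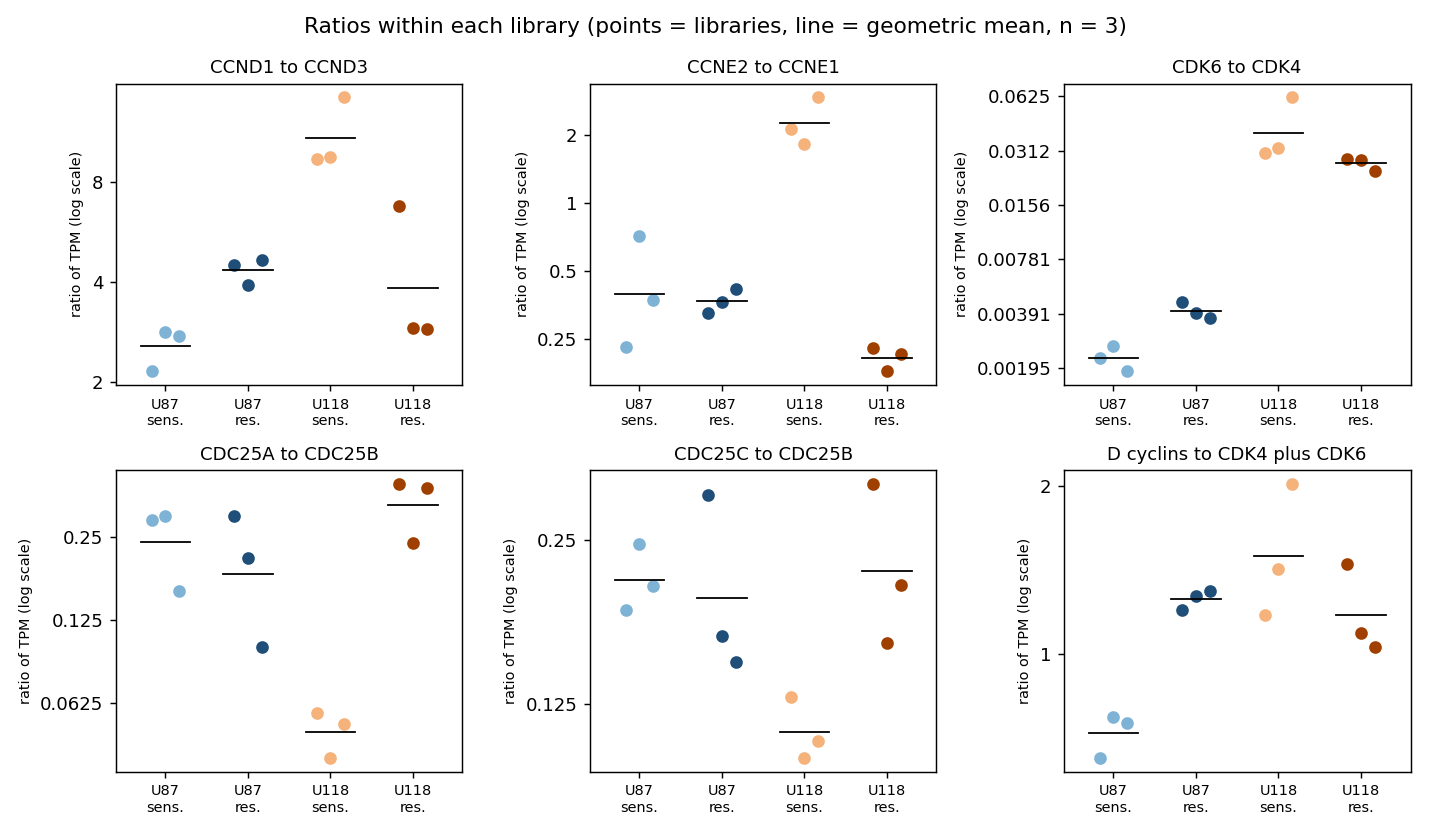
Ratios of TPM within each library on a logarithmic axis, for U87 and U118 sensitive (sens.) and resistant (res.) libraries (points) with the geometric mean (line, n = 3). CCNE2 to CCNE1 drops from 1.82 to 2.92 in U118 sensitive libraries to 0.180 to 0.227 in those labelled resistant, CDC25A to CDC25B is higher in the latter, and CCND1 to CCND3 differs between the groups in opposite directions in the 2 lines.

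CDK4, the kinase of the D-type cyclins, lies at chr12:57747727-57756013 on the minus strand and was among the 3 highest of the 10 genes in every group. In U87 it had 426, 430 and 398 TPM in the sensitive libraries and 326, 276 and 314 TPM in the resistant ones. All resistant values were lower, with a log2 fold change of -0.45 ± 0.08 that passed the adjusted p (0.00478 in limma) but not the fold threshold. After median-ratio scaling it was -0.19 with an adjusted p of 0.234. In U118, CDK4 had 417, 347 and 207 TPM in the sensitive libraries and 268, 201 and 225 TPM in those labelled resistant. Sensitive replicate 3 lay among the resistant values, so the groups overlapped, and the log2 fold change was -0.43 ± 0.28 (adjusted p = 0.223, 95% interval from -1.08 to 0.21). It was 0.12 after median-ratio scaling and -0.73 with an adjusted p of 0.0330 without sensitive replicate 3. The difference between the lines was 0.02, with a 95% interval from -0.66 to 0.69.

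CDK6, the related kinase, lies at chr7:92604921-92836594 on the minus strand. The U87 values of CDK6 were 0.944, 1.12 and 0.744 TPM in the sensitive libraries and 1.47, 1.09 and 1.16 TPM in the resistant ones. These low values overlapped, and the log2 fold change was 0.21 ± 0.14 with an adjusted p of 0.277. In U118 it had 12.6, 11.2 and 12.8 TPM in the sensitive libraries and 7.53, 5.60 and 5.45 TPM in those labelled resistant. The groups did not overlap, and the log2 fold change of -0.89 ± 0.23 passed the adjusted p (0.0117 in limma) but not the fold threshold. Without resistant replicate 1 it was -1.01 with an adjusted p of 0.00107, past both. Over the fits that left out libraries it ranged from -1.01 to -0.81. The adjusted p in limma reached 0.0690 among these fits, so it did not pass in all of them. After median-ratio scaling it was -0.39 with an adjusted p of 0.0897. The interaction of -1.10 ± 0.25 had an adjusted p of 0.00419, and -0.78 with an adjusted p of 0.00779 after median-ratio scaling, under the fold threshold.

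CDK4 exceeded CDK6 in all 12 libraries, and CDK6 took 0.222% ± 0.036 (SD, n = 3) of the summed kinase TPM in U87 sensitive libraries and 3.96% ± 1.61 in U118 sensitive ones. The ratio of the summed D-type cyclins to CDK4 plus CDK6 in U87 was 0.650, 0.768 and 0.750 in the sensitive libraries and 1.20, 1.27 and 1.29 in the resistant ones. Every resistant library was higher, with a log2 difference of 0.80 ± 0.08 and the smallest exact permutation p of 0.1. In U118 it was 1.17, 1.42 and 2.02 in the sensitive libraries and 1.45, 1.09 and 1.03 in those labelled resistant, and the groups overlapped (exact permutation p = 0.3, adjusted 0.38). The ratio of CDK6 to CDK4 was higher in every U87 resistant library (log2 difference 0.87 ± 0.16) and lower in every U118 library labelled resistant (-0.56 ± 0.34), each with an exact permutation p of 0.1. Without U118 sensitive replicate 3, whose ratio of 0.0618 stood above 0.0303 and 0.0323 in its group, the difference in U118 was -0.23.

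CDC25A, CDC25B and CDC25C all fell in U87, and sequence before their starts is shown for the motifs searched. RefSeq promoter windows (GRCh38.p14, 250 bases before to 50 after a start) were searched for 7 of the 10 genes. Windows of CCND1, CCND2 and CCNE2 were not used, so nothing is said of their motifs. Both strands were searched for the E2F letters TTTCGCGC, TTTGGCGC, TTTCCCGC and TTTGCCGC, the CHR letters TTTGAA and TTCGAA (the cell cycle genes homology region of G2/M promoters), CCAAT, the SP1 letters GGGCGG and the CRE core letters TGACG. Among 34943 RefSeq windows of that length, 3.3% held an E2F match, 16.4% CHR, 34.6% CCAAT, 44.9% GGGCGG and 24.5% TGACG. Capitals mark every match on either strand in the 250 bases before the start, 5′ to 3′. CDC25A, with 1 window, is at chr3:48188418-48188667 on the minus strand, and of the 4 windows of CDC25C the one with the most matches is shown, at chr5:138331878-138332127 on the minus strand.
CDC25A: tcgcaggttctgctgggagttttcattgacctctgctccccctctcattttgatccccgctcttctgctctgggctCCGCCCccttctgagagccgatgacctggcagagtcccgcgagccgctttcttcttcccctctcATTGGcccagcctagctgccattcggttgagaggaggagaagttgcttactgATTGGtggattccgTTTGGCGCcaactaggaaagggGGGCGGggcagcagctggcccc
CDC25C: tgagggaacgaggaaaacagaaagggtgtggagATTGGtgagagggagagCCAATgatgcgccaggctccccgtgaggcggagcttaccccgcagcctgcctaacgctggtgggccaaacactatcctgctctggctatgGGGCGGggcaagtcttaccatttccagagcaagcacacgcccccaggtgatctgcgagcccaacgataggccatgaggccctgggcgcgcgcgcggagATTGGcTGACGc

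CDC25A was the one of the 7 genes with an E2F match, TTTGGCGC at 44 to 37 bases before its start, and it held 2 CCAAT matches. CDC25C held 3 CCAAT matches and a CHR match 43 to 48 bases after the start of that window, which lay 30 to 25 bases before the start of another. CDC25B held a CHR match in 1 of its 4 windows, 38 to 33 bases before that start, with a CCAAT match at 73 to 69 bases before it. The windows of CCNE1, CDK4 and CDK6 held no CHR and no CCAAT letters. These genes had fewer windows searched than CDC25B and CDC25C, and the shares of all windows above are per window. A gene with more windows had more room for a match, so the genes are not compared on equal terms. The CHR letters of the 2 genes called in both lines are shown with 9 bases on each side, CDC25B at chr20:3796263-3796286 on the plus strand and CDC25C at chr5:138331820-138331843 on the minus strand. A match describes letters and is not evidence of binding. The lack of a match covers only the exact letters searched within these windows and does not show that a site is absent.
CDC25B: ctgttatttTTCGAAtatataagg
CDC25C: ggcggaaggTTTGAAtggtcaacg

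CDC25B, which activates CDK1 with cyclin B before mitosis, lies at chr20:3786772-3806121 on the plus strand and was the highest of the CDC25 genes in all 12 libraries. In U87 it had 127, 110 and 141 TPM in the sensitive libraries and 46.2, 63.6 and 64.5 TPM in the resistant ones. The groups were far apart, and CDC25B fell by 1.11 on the log2 scale (SE 0.15, adjusted p = 0.00182 in limma). Its size went under the fold threshold after median-ratio scaling (-0.85), without the mitochondrially encoded genes (-0.98) and without resistant replicate 1 (-0.96), with adjusted p from 0.00433 to 0.0108 in these fits. The U118 values of CDC25B were 316, 359 and 387 TPM in the sensitive libraries and 84.8, 69.9 and 62.6 TPM in those labelled resistant. The mean of the sensitive libraries was 4.89 times as high. CDC25B fell by 2.28 on the log2 scale (SE 0.21, adjusted p = 3.3e-05), and every alternative kept that call, from -2.40 to -1.72. The interaction was -1.17 ± 0.25 (adjusted p = 0.00245), and -0.92 with an adjusted p of 0.0239 after median-ratio scaling, under the fold threshold.

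CDC25C, which acts on the same mitotic kinase, lies at chr5:138285265-138338355 on the minus strand. The U87 values of CDC25C were 23.6, 27.1 and 29 TPM in the sensitive libraries and 14.0, 10.6 and 9.66 TPM in the resistant ones. The groups did not overlap, and CDC25C fell by 1.16 on the log2 scale (SE 0.16, adjusted p = 0.00183 in limma). Median-ratio scaling gave -0.91 with an adjusted p of 0.00313, and the call was lost to the fold threshold. In U118 it had 40.6, 35.7 and 41.4 TPM in the sensitive libraries and 26.9, 11.3 and 12.9 TPM in those labelled resistant. Resistant replicate 1 lay between the other two and the sensitive libraries. CDC25C fell by 1.25 on the log2 scale (SE 0.31, adjusted p = 0.00980). Median-ratio scaling gave -0.72 with an adjusted p of 0.0150, again under the fold threshold. The difference between the lines was -0.09, with a 95% interval from -0.91 to 0.73.

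CDC25A, which acts on CDK2 as well as CDK1, lies at chr3:48157146-48188402 on the minus strand. In U87 it had 36.6, 33.0 and 22.4 TPM in the sensitive libraries and 13.8, 13.4 and 6.42 TPM in the resistant ones. Every resistant value was lower, and CDC25A fell by 1.41 on the log2 scale (SE 0.31, adjusted p = 0.0112 in limma), with a range of -1.62 to -1.09 over all alternatives and the call kept in each. The U118 values of CDC25A were 18.2, 14.2 and 20.3 TPM in the sensitive libraries and 33.0, 16.6 and 23.6 TPM in those labelled resistant. The groups overlapped, and the log2 fold change was 0.42 ± 0.29 (adjusted p = 0.242, 95% interval from -0.23 to 1.06). After median-ratio scaling it was 0.95 with an adjusted p of 0.00472, still under the fold threshold. The interaction was 1.83 ± 0.44 with an adjusted p of 0.00565.

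The summed TPM of the CDC25 genes was 183 ± 11.5 (SD, n = 3) in U87 sensitive libraries and 80.7 ± 6.8 in U87 resistant ones, and 411 ± 37.3 in U118 sensitive libraries and 114 ± 26.7 in those labelled resistant. Within the family the proportions were compared in each line alone, and a difference between the lines was not tested. The ratio of CDC25A to CDC25B in U118 was 0.0576, 0.0395 and 0.0524 in the sensitive libraries and 0.389, 0.238 and 0.378 in those labelled resistant, a log2 difference of 2.73 ± 0.28 with the smallest exact permutation p of 0.1. In U87 it was 0.288, 0.299 and 0.159 against 0.299, 0.210 and 0.0995, with overlap (exact permutation p = 0.6, adjusted 0.7). The ratio of CDC25C to CDC25B was higher in every U118 library labelled resistant (log2 difference 0.98 ± 0.30, exact permutation p = 0.1) and overlapped between the groups in U87 (exact permutation p = 0.7, adjusted 0.75).

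**Figure D3:**
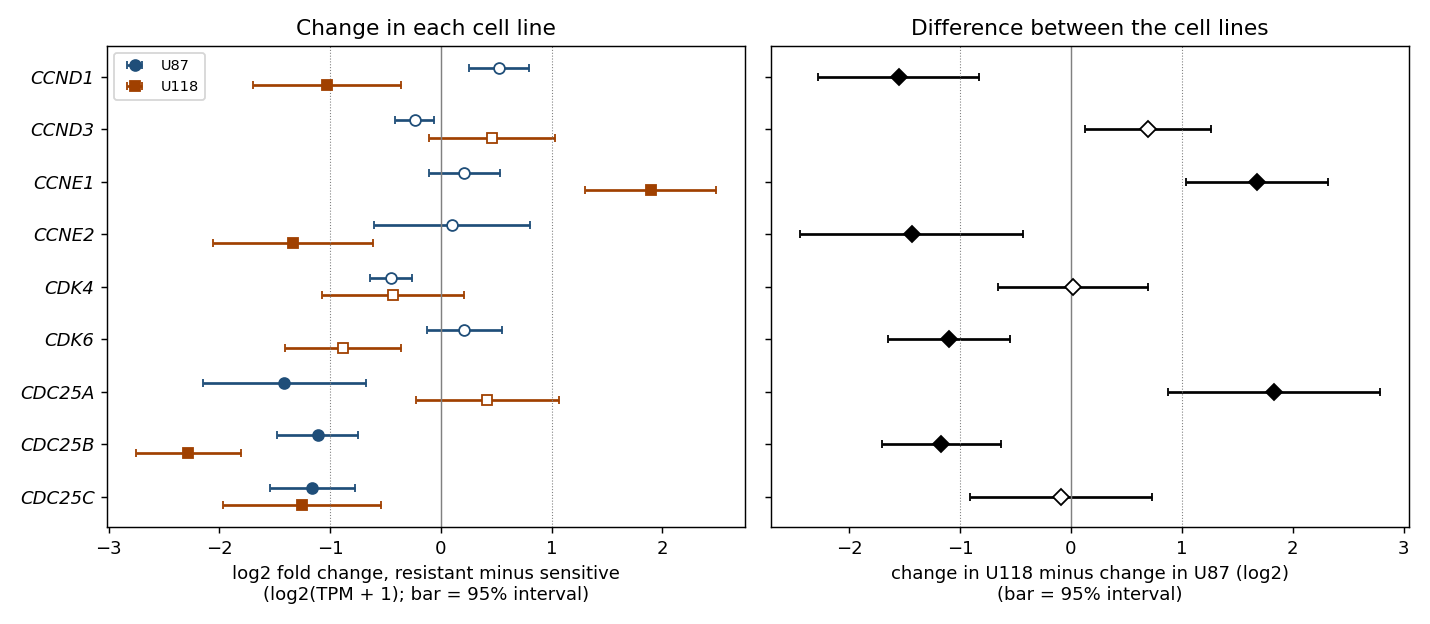
Left, log2 fold change (resistant minus sensitive, log2(TPM + 1)) of the 9 tested genes in U87 (circles) and U118 (squares) with 95% intervals, filled where called and dotted lines at the fold threshold. Right, the change in U118 minus that in U87, where CCND1, CCNE1, CCNE2, CDK6, CDC25A and CDC25B pass the threshold and CDC25C (-0.09) and CDK4 (0.02) lie near 0.

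The difference between the lines passed the adjusted p and the fold threshold for 6 of the 9 genes, 2 with a higher and 4 with a lower change in U118, beside 30.5% of all 16382 genes tested. With median-ratio scaling there were 2 with a higher and 2 with a lower change, beside 30.3% of all genes, since CDK6 and CDC25B went under the fold threshold. CCND1 and CCND3 were the 2 genes whose library values were apart in opposite directions in the 2 lines, 2 of 9 beside 10.6% of all genes tested in both. For the remaining 3, CCND3, CDK4 and CDC25C, the 95% intervals of the difference ran from 0.13 to 1.27, from -0.66 to 0.69 and from -0.91 to 0.73 on the log2 scale.

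By mean TPM the order in U87 sensitive libraries was CDK4, CCND1, CDC25B, CCND3, CDC25A, CDC25C, CCNE1, CCNE2, CDK6 and CCND2, and of the neighbours in it the libraries of CDC25A and CDC25C overlapped. In U87 resistant libraries CCND1 and CDK4 overlapped at the top, followed by CCND3, CDC25B and CCNE1, all apart, and then by CDC25C, CDC25A and CCNE2, which overlapped in turn. In U118 sensitive libraries CCND1 led, CDC25B and CDK4 overlapped behind it, and CCNE1 ranked ninth. In the U118 libraries labelled resistant CDK4 and CCND1 overlapped at the top, CDC25B followed apart, and from CCND3 through CCNE1, CDC25A, CDC25C and CCNE2 to CDK6 each gene overlapped with the next.

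Some of the 10 genes share genomic sequence with others, and whether the counting used strand is not given in the sources used here. On the opposite strand, CDK4 overlaps TSPAN31 by 2485 bases of the gene spans (11.5 to 18.5 TPM) and MARCH9 by 916 bases (14.6 to 36.1 TPM). Also on the opposite strand, CCND1 overlaps LTO1 by 1399 bases (15.4 to 36.8 TPM), and CDC25C overlaps FAM53C by 6421 bases (29.8 to 53.6 TPM). CCNE2 overlaps INTS8 and NDUFAF6 (7.99 to 31.8 and 14.97 to 44.1 TPM). The ranges of these neighbours reach above those of CCNE2 and CDC25C, so the values of these 2 genes are the less certain. CCND2 overlaps AC008012.1, a protein-coding gene on the same strand, by 31579 bases, and the data hold no value for that gene. Whether this bears on the low values of CCND2 was not tested.

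The CDK inhibitors bind the complexes of these cyclins and kinases. Of 7 in the list, 3 were tested in U87 and 4 in U118. CDKN1A, which encodes p21, had 125, 117 and 117 TPM in the U87 sensitive libraries and 804, 642 and 838 TPM in the resistant ones. In U118 it had 101, 39.4 and 71.2 TPM in the sensitive libraries and 687, 534 and 453 TPM in those labelled resistant. It rose by 2.65 ± 0.11 in U87 and 3.04 ± 0.34 in U118 on the log2 scale, with adjusted p of 3.0e-05 and 0.000114 in limma. The ratio of CDKN1A to the summed D-type cyclins was 0.451, 0.352 and 0.391 in U87 sensitive and 2.05, 1.82 and 2.05 in U87 resistant libraries. In U118 it was 0.201, 0.0775 and 0.161 in the sensitive libraries and 1.72, 2.37 and 1.92 in those labelled resistant. CDKN1A was thus below the D-type cyclins in every sensitive library and above them in every resistant one, with an exact permutation p of 0.1 in each line. CDKN2C, an inhibitor of CDK4 and CDK6, had 189, 190 and 135 TPM in U118 sensitive libraries, was listed at 0, 0.030 and 0 TPM in those labelled resistant, and was listed at 0 in all U87 libraries. CDKN1B fell in U118 (-1.28 ± 0.32, adjusted p = 0.00915), and CDKN2D in U87 (-1.19 ± 0.10, adjusted p = 0.000300), and neither was called after median-ratio scaling.

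Of the RB family, E2F and DP genes, 1 of 12 tested fell in U87 and 5 of 13 in U118, and none rose. Beside them, 7.79% and 26.6% of all genes fell, so the U87 share was near that of all genes. After median-ratio scaling 3 fell and 3 rose in U118, beside 12.9% and 15.2% of all genes. The list medians were -0.64 and -0.78, beside -0.24 and -0.52 for all genes. E2F5, a factor that acts with the RB relatives, fell in both lines (-2.39 in U87 and -1.71 in U118). E2F7, a repressor of E2F targets, had 41.5, 53.3 and 52.7 TPM in U118 sensitive libraries and was listed at 0 in all 3 labelled resistant, and U87 libraries held at most 0.13 TPM. E2F3 and TFDP2 fell in U118 (-1.61 and -1.50). With the adjusted p alone, 7 of the list were lower and 0 higher in U87, beside 29.7% and 9.43% of all genes. In U118 6 were lower and 2 higher, beside 39.1% and 12.2%. The 2 higher were E2F1 and E2F2 (0.75 and 0.67). E2F1 was lower in U87 (-0.97), with an interaction of 1.72 (adjusted p = 9.7e-05 in limma).

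Among the other cyclins and kinases, 4 of 10 tested fell in U87 and 3 of 10 in U118, where 7.79% and 26.6% of all genes fell. The U118 share was thus near that of all genes. After median-ratio scaling 3 and 1 fell, beside 3.92% and 12.9% of all genes. CCNA2, the cyclin of S and G2, had a mean of 79.4 TPM in U87 sensitive and 26.9 in U87 resistant libraries, and 113 and 31.4 TPM in U118. CCNB1 and CCNB2, the mitotic partners of CDK1, fell in both lines (log2 fold change -1.62 and -1.90 in U87, -1.50 and -1.10 in U118). CKS2, a small CDK-binding protein, fell in U87 (-1.25 ± 0.10). Of 14 G2/M genes, beside the same shares of all genes, 11 fell in U87 and 10 in U118, with medians of -1.40 and -1.33. After median-ratio scaling 9 and 5 fell. CDC20, AURKA, BUB1 and TPX2, which act in spindle assembly and its checkpoint, fell in both lines (in that order, log2 fold changes of -1.50, -1.35, -1.50 and -1.41 in U87 and -1.18, -1.48, -1.16 and -1.71 in U118). MKI67, a marker of cycling cells, fell in U87 (-1.58 ± 0.22) and had -0.46 ± 0.25 in U118 (adjusted p = 0.157), where TOP2A fell by 1.87.

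Of 16 G1/S targets of E2F, 1 fell in U87 and 4 in U118, and none after median-ratio scaling in either line, shares no larger than the 7.79% and 26.6% of all genes. MCM2, part of the replicative helicase, fell in both (-1.14 and -1.11), and PCNA, the sliding clamp, fell in U118 by 1.43. The list medians were -0.49 and -0.75. MCM5 and MCM4 fell in U118 (-1.12 and -1.06).

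Of the 6 kinases that oppose CDC25, 1 fell in U87 and 4 in U118, beside 7.79% and 26.6% of all genes, with medians of -0.59 and -1.47. After median-ratio scaling 0 and 3 fell, beside 3.92% and 12.9% of all genes. CHEK1 had a mean of 18.4 TPM in U87 sensitive and 7.87 TPM in U87 resistant libraries, and 48.9 and 14.4 TPM in U118, and fell in both lines. WEE1, ATM and ATR fell in U118 (-1.59, -1.83 and -1.36). Of 12 genes for the turnover of G1 cyclins and CDC25, 2 fell in each line, and 2 in U87 and 1 in U118 after median-ratio scaling. In U118 these shares were below those of all genes. SKP2, the receptor that targets p27 for destruction, fell in both (-1.61 and -1.51). USP28, a deubiquitinase that opposes FBXW7, had 24.4, 23.1 and 23.2 TPM in U118 sensitive libraries and 1.82, 0.485 and 0.981 TPM in those labelled resistant, and FBXO4 fell in U87 (-1.37 ± 0.14).

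Of 12 genes that are induced by or act in mitogen signalling toward cyclin D, 1 rose and 1 fell in U87, and 3 fell in U118. The shares that fell were near the 7.79% and 26.6% of all genes, of which 3.03% and 8.64% rose. After median-ratio scaling 1 rose and none fell in each line, where 4.79% and 15.2% of all genes rose. DUSP6, a phosphatase induced by ERK activity, was called in opposite directions, with means of 1.50 and 8.02 TPM in U87 sensitive and resistant libraries (1.85 ± 0.21) and 43.0 and 14.4 TPM in U118 (-1.51 ± 0.23). CCN1 fell in U87 (-1.05 ± 0.09), and CCN2 and ETS1 fell in U118 (-1.44 and -1.10). Over the 8 lists together, 2 of 83 tested genes rose and 21 fell in U87, and 1 of 85 rose and 32 fell in U118. Of all genes, 7.79% and 26.6% fell and 3.03% and 8.64% rose. After median-ratio scaling 14 fell in each line, beside 3.92% and 12.9% of all genes, and 2 and 5 rose, beside 4.79% and 15.2%. Of 27 genes next to the 10 on the chromosomes, 0 rose and 1 of 22 tested fell in U87, and 1 rose and 5 of 23 fell in U118, below the shares of all genes that fell, with medians of -0.18 and -0.36.

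**Figure D4:**
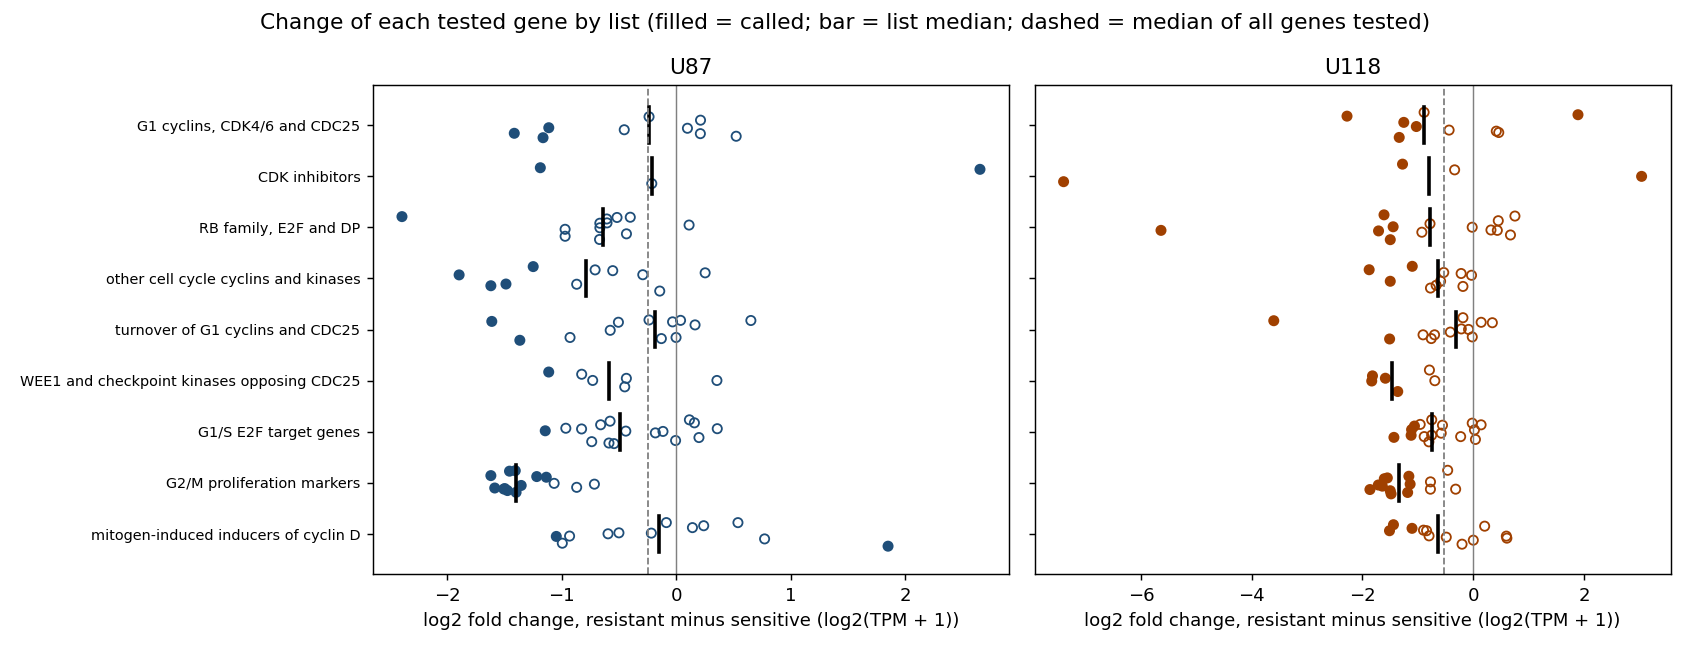
Log2 fold change (resistant minus sensitive, log2(TPM + 1)) of each tested gene, by list, in U87 and U118, with called genes filled, the list median as a bar and the median of all genes tested as a dashed line (-0.24 and -0.52). The G2/M list has the median farthest below the dashed line in U87 (-1.40), and CDKN1A stands apart on the right in both lines (2.65 and 3.04).

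Over the 12 libraries, the genes with the pattern most like each of the 10 were found by Pearson's r of log2(TPM + 1). These r values are a description, since the 12 points fall into 4 groups and share the libraries. For CCND1 they were NSFP1, COL5A2 and MARF1 (r from 0.985 to 0.977), and for CCND3 CAPG and MRPL41 (0.984 and 0.983). CCNE1 was nearest PTGFRN and HSPB3 (0.983 and 0.980) and then a gene without a symbol, and CCNE2 was nearest NR2C1, MAK16 and FAM172A (0.991 to 0.984). For CDK4 RAB34 and DTYMK (0.973 and 0.963) and for CDK6 JARID2 and FAM107B (0.994 and 0.993) came first, each followed by a gene without a symbol. CDC25A was nearest PRELID2, B4GALT3 and ADARB1 (0.958 to 0.891), CDC25B nearest DLX2, UBE2D4 and TMPO-AS1 (0.985 to 0.982), and CDC25C nearest PFN4, HNRNPA1 and UTP14A (0.986 to 0.978). CDC25A had the least close neighbours of the 9.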

How the data were processed

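Poly(A) mRNA libraries were prepared from 12 cell samples, and the sample titles gave each group and replicate number. The authors deposited TPM values, one table of 58174 genes per cell line. Per the labels the processing used FastQC 0.11.2, Trimmomatic 0.36, HISAT2 2.0, bedtools 2.26.0 and GRCh38. The annotation and the tool that computed TPM are not given in the sources used here. TPM has no read counts, so no count model or detection limit was used.

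log2(TPM + 1) was fitted with limma 3.58.1 (R 4.3.3, eBayes with trend, two-sided), and the difference between the lines as an interaction over 12 libraries (1 TPM in at least 3). The fits were tested on simulated data. Ratios were compared with exact permutation tests in scipy 1.17.1, and figures drawn with matplotlib 3.10.9. Positions are from GENCODE release 29 and promoters from RefSeq. Alternatives were pseudocounts of 0.1 and 0.01, no filter, a mean of 10 TPM, median-ratio scaling, TPM without mitochondrially encoded genes, the replicate block, no trend, no fold threshold and leaving out libraries.

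The 10 genes and all lists were chosen with earlier results of these data known. Named beside the 10 were list genes called in both lines, up to 3 others per list with the largest called change and no overlap, and the 3 most similar genes. Of those called in both lines, BUB1B, KIF20A and NUSAP1, and of the others CENPF, are counted but not described. E2F1 and E2F2 were named as well, as higher in U118 by the adjusted p alone. One of the similar genes is not reported here.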

Additional observations from a re-analysis of the deposited data

Results flagged for a closer look

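The change between sensitive and resistant libraries differed between U87 and U118, by the interaction test of limma over 12 libraries, for 6 of the 9 genes tested. On the log2 scale, as the change in U118 minus that in U87, the difference was -1.55 for CCND1, 1.68 for CCNE1, -1.43 for CCNE2, -1.10 for CDK6, 1.83 for CDC25A and -1.17 for CDC25B. After median-ratio scaling 4 of the 9 passed, with CDK6 at -0.78 and CDC25B at -0.92 under the fold threshold. Since the U118 libraries labelled resistant were closer to the U87 libraries than to the U118 sensitive ones, a difference in response and a difference in the origin of the cells cannot be told apart for these values.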

How the results depend on the processing

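The number of the 9 genes called in U87 went from 3 to 1 after median-ratio scaling and to 6 with no fold threshold, and in U118 from 5 (4 lower, 1 higher) to 3 (1 lower, 2 higher) after median-ratio scaling, which also took the interaction from 6 to 4. The pathway lists had 46 called genes in U87 with no fold threshold, against 23, and 19 in U118 after median-ratio scaling, against 33. Leaving out one library gave 2 to 3 genes called in U87, 4 to 6 in U118 and 5 to 6 for the interaction. The replicate number as a block gave 3, 5 and 6 called of the 9 and 23 and 33 pathway genes, the same counts as without it. Deviations of libraries with the same number correlated at -0.067 to 0.011 in U87 and 0.051 to 0.139 in U118. In U118 each library correlated best with its own number, a hint from the data only, so the numbers were not taken to pair libraries, and the block changed no call. The ratio of CDK6 to CDK4 in U87 had a log2 difference of 0.67 with TPM plus 1, against 0.87. Without one library, the log2 difference of CCNE2 to CCNE1 in U87 ranged from -0.49 to 0.33, that of CDC25A to CDC25B from -0.73 to 0.067, and that of CDC25C to CDC25B from -0.42 to 0.088, and that of CDK6 to CDK4 in U118 from -0.74 to -0.23. Reversed after median-ratio scaling were CCND3 in U87 (0.024), CDK4 in U118 (0.12) and the interaction of CDC25C (0.16). Without one library, CCNE2 in U87 ranged from -0.17 to 0.41, including -0.02, and the interactions ranged from -0.27 to 0.23 for CDK4 and from -0.45 to 0.14 for CDC25C. The cause of these changes was not tested. Leaving out U118 sensitive replicate 3 and resistant replicate 1 together, chosen after seeing the data, gave 5 called of the 9 and 40 pathway genes. With 3 libraries a group and no counts, changes in CDK6 in U87 and in CCND2 lie near the lowest values that could be compared.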
